A study of Neurospora crassa with 18 samples.

Results

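The libraries described here came from mycelia of the *cpc-1* deletion strain (*cpc-1Δ*) of the filamentous fungus *Neurospora crassa*, grown in 0.1% glucose medium with arginine (2 libraries) or in 2% glucose medium (2 libraries). They were picked by the strain and medium in their labels and made up 4 of the 18 mRNA sequencing libraries of the series. The low-glucose medium held Vogel's salts, 0.1% glucose and 0.17% arginine. The other medium held the same salts with 2% glucose and no arginine named. The mycelia were grown from fresh conidia at room temperature in constant light, and none received 3-aminotriazole (3-AT). The remaining 14 libraries were wild type (WT, strain FGSC4200) in both media (2 in 0.1% glucose with arginine and 3 in 2% glucose), WT and *cpc-1Δ* with 3-AT, and a complemented strain with 3-AT. Glucose and arginine changed together between the media, so their effects cannot be told apart. The labels give the strain only as a deletion mutant and do not say how many isolates were used, or whether the 2 libraries of a group came from separate cultures, so the p-values measure only the spread between these libraries.

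CPC-1 is the *Neurospora* ortholog of yeast GCN4, the bZIP activator of cross-pathway control, under which lack of a single amino acid raises transcription of the genes of many amino acid pathways. *Neurospora* also adjusts transcription to its carbon source. When glucose is plentiful, repression by CRE-1 and other regulators keeps genes for alternative sugars, high-affinity uptake and gluconeogenesis low, and these genes are released when glucose runs short. Vogel's salts supply nitrogen as ammonium nitrate. Arginine is another nitrogen source that is broken down through arginase and ornithine transaminase, and it feeds back on the first steps of its own synthesis.

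Values were RPKM (read numbers scaled to transcript length and to the mapped reads of a library), summed over the transcripts of a gene. Read depth is unknown, because the files held no counts. The 4 *cpc-1Δ* libraries summed to 535612 and 546387 RPKM in 0.1% glucose, against 515150 and 516957 RPKM in 2% glucose, and their median-ratio scaling factors lay between 1.21 and 1.24. The median absolute log2 difference between the 2 libraries of a group was 0.094 in 0.1% glucose and 0.066 in 2% glucose (genes averaging 10 RPKM or more). Zeros needed care. Between 74 and 93 genes in each library were listed at 0 while the other library of the group had 5 RPKM or more, among them the glycolytic gene *gpd-1* with 5819 and 0 RPKM in the 0.1% glucose libraries, against 7493 and 4937 RPKM in the 2% glucose libraries. Such a 0 may be a failed estimate, so genes listed at 0 are given by their values in each library. A gene's fold change that rests on a 0 is given only where the 0 is named beside it.

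The deleted gene was checked first. *cpc-1* (NCU04050) had 2.43 and 2.46 RPKM in *cpc-1Δ* in 0.1% glucose, against 3.15 and 5.11 RPKM in *cpc-1Δ* in 2% glucose. WT libraries had 430 and 418 RPKM in 0.1% glucose and 1162, 1129 and 1125 RPKM in 2% glucose, so every *cpc-1Δ* library lay far below every WT library. The small difference within *cpc-1Δ* (adjusted p = 0.013) missed the threshold without either of the 0.1% glucose libraries (adjusted p up to 0.0558). *cpc-2*, a RACK1-type protein of the ribosome, had 1318 and 1312 RPKM in *cpc-1Δ* in 0.1% glucose, against 1185 and 1190 RPKM in 2% glucose (adjusted p = 0.1, and 0.013 after median-ratio scaling). *cpc-3*, the GCN2-type kinase that senses uncharged tRNA, had 11 and 11.4 RPKM in 0.1% glucose, against 11.3 and 11.3 RPKM in 2% glucose (adjusted p = 1). The mycelial housekeeping markers β-tubulin (*Bml*) and actin (*act*) were high in all 4 libraries, with *act* at 1204 and 1160 RPKM in 0.1% glucose, against 939 and 967 RPKM in 2% glucose.

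Across the transcriptome, 2538 of 9013 genes tested (28.2%) differed between *cpc-1Δ* in 0.1% glucose with arginine and *cpc-1Δ* in 2% glucose at an adjusted p under 0.05 (limma on log2(RPKM + 1), Benjamini-Hochberg). Of these, 1195 (13.3% of genes tested) were higher in 0.1% glucose and 1343 (14.9%) were lower. Counts of list members given below are to be read beside these shares. After median-ratio scaling 2524 genes (28.0%) were called, and 2371 were called in the same direction both ways. Most of the changes were small. Only 228 genes rose and 433 fell by 1 or more on the log2 scale, and 75 rose and 133 fell by 2 or more. The median log2 fold change was 0.02 over 4916 genes averaging 10 RPKM or more. With 2 libraries in each medium, 2672 of the 9013 genes were higher in 0.1% glucose without overlap and 2871 were lower. Most genes thus separated by medium, and a lack of overlap alone says little about a gene. When the fit used these 4 libraries alone it called 1543 genes. Exact permutation of 2 libraries against 2 cannot give a p under 0.333, so single genes rest on the spread pooled over all genes and 15 libraries.

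Among the members of the gene lists that were above 0 in all 4 libraries, the 3 largest rises belonged to the uptake and release of sugars. *inv*, which encodes invertase, the secreted enzyme that splits sucrose, had 1947 and 1974 RPKM in 0.1% glucose, against 29.3 and 31.5 RPKM in 2% glucose, a 64.5-fold difference (log2 fold change 5.97 ± 1.12 SE, adjusted p = 0.0024). *hgt-1*, a high-affinity glucose transporter gene, had 982 and 1011 RPKM in 0.1% glucose, against 18.8 and 17.4 RPKM in 2% glucose, which was 55.2-fold higher (log2 fold change 5.71 ± 0.13, adjusted p = 1.3e-10). *gla-1*, the secreted glucoamylase that cuts glucose from starch, had 423 and 437 RPKM, against 11.8 and 13.8 RPKM in 2% glucose (33.6-fold, adjusted p = 8.2e-12). For these 3 genes the libraries of the 2 media were separated by more than an order of magnitude, and the replicate libraries lay close together.

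The cellodextrin transporters, which import short glucose chains from cellulose, rose too, at lower levels. *cdt-1* had 37.9 and 32.2 RPKM in 0.1% glucose, against 8.71 and 9.11 RPKM in 2% glucose (log2 fold change 1.86, adjusted p = 3.7e-07). *cdt-2* had 4.71 and 4.31 RPKM, against 0.568 and 1.07 RPKM in 2% glucose (adjusted p = 0.00015), so it stayed low in both media. *sor-4* (*rco-3*), which encodes a transporter-like glucose sensor, had 15.4 and 14.9 RPKM in 0.1% glucose, against 14.6 and 15.9 RPKM in 2% glucose, and its libraries overlapped. In all, 3 of 5 tested members of the list for glucose sensing and uptake rose and none fell, and 3 of 4 members of the list for starch, maltose and sucrose use rose (*inv*, *gla-1* and the amylase-family gene *gh13-1*). *gh13-1* rose little, with 299 and 285 RPKM in 0.1% glucose, against 254 and 252 RPKM in 2% glucose (adjusted p = 0.0097), and missed the threshold without replicate 1 in 0.1% glucose (adjusted p = 0.0588). These shares stood beside 13.3% of all genes tested, in lists of 5 and 4 genes.

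**Figure D1:**
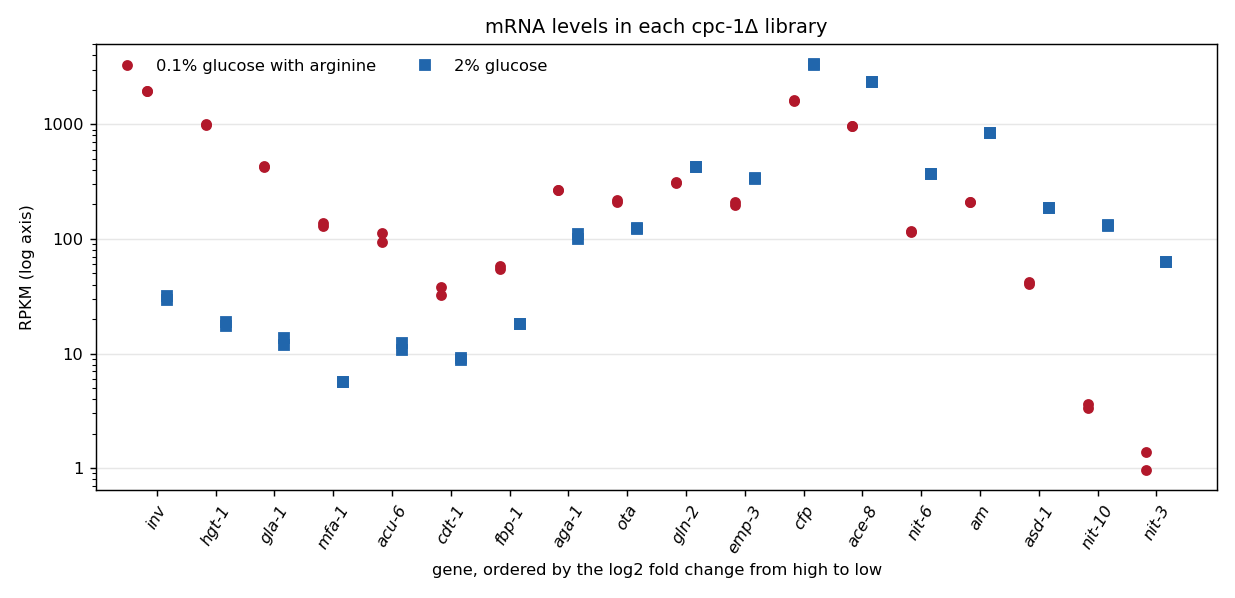
RPKM (log axis) of 18 genes in each *cpc-1Δ* library, with circles for 0.1% glucose with arginine and squares for 2% glucose, ordered by log2 fold change. Each symbol is 1 library, and the pairs of *inv*, *hgt-1* and *gla-1* at the left and of *nit-10* and *nit-3* at the right are the farthest apart.

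Of 10 tested members of the list for cellulose, hemicellulose and pectin use, 3 rose (*clr-1*, *cbh-1* and the xylose reductase gene *xr*) and none fell, and 1 fell without replicate 1 in 2% glucose. The cellulase regulator *clr-1* had 24.9 and 23.2 RPKM in 0.1% glucose, against 12.7 and 12.7 RPKM in 2% glucose (adjusted p = 0.00059, and 0.177 with each gene's highest transcript alone), and the cellobiohydrolase gene *cbh-1* had 9.98 and 8.16 RPKM, against 3.87 and 5.02 RPKM in 2% glucose (adjusted p = 0.0014, and 0.059 with these 4 libraries alone). *clr-2*, the other cellulase regulator, had 0.378 and 0.358 RPKM in 0.1% glucose, against 0.216 and 0.355 RPKM in 2% glucose, and the xylanase gene *gh10-2* was listed at 0 in all 4. Over the 78 tested genes with a glycoside hydrolase (*gh*) symbol, 10 rose and 9 fell, with a median log2 fold change of -0.07. Both shares were below those over all genes tested, of which 13.3% rose and 14.9% fell. Among the 10 were *gh18-5*, of the family that holds chitinases, at 112 and 115 RPKM in 0.1% glucose and listed at 0 and 0 in 2% glucose, and *gh31-3*, of a family that holds α-glucosidases, at 69 and 52.8 RPKM, against 0 and 3.51 RPKM in 2% glucose (adjusted p = 3.3e-05, and 0.055 with these 4 libraries alone). None of 11 tested *gh61* genes (lytic polysaccharide monooxygenases) rose and 2 fell.

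Of 6 tested regulators in the carbon repression list, 3 rose (*col-26*, *prk-10* and *nmr*) and 1 fell (*vib-1*), beside 13.3% of all genes tested that rose and 14.9% that fell. *cre-1*, which encodes the zinc finger repressor of carbon catabolite repression, had 124 and 126 RPKM in 0.1% glucose, against 111 and 108 RPKM in 2% glucose (log2 fold change 0.20, adjusted p = 0.14), and neither it nor the co-repressor gene *rco-1* (adjusted p = 0.61) passed the test. *col-26*, a zinc cluster regulator of glucose sensing and starch use, rose with 37 and 43.3 RPKM in 0.1% glucose, against 25.2 and 25 RPKM in 2% glucose (adjusted p = 0.00095). *prk-10*, the Snf1-type kinase gene, rose with 45 and 45.1 RPKM, against 35.3 and 34 RPKM in 2% glucose (adjusted p = 0.0082). *vib-1*, a p53-like regulator that promotes plant cell wall degradation, fell, with 106 and 109 RPKM in 0.1% glucose, against 154 and 148 RPKM in 2% glucose (adjusted p = 0.00049). The 4 libraries of *vib-1*, *col-26* and *prk-10* separated by medium without overlap, as did those of most genes tested.

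Genes for making glucose from smaller carbon compounds rose together. Of 8 tested members of the list for the glyoxylate cycle and gluconeogenesis, 6 rose and none fell, beside 13.3% of all genes tested that rose. The median log2 fold change was 1.17, against 0.00 over all genes tested. *acu-6*, which encodes phosphoenolpyruvate carboxykinase, the entry step of gluconeogenesis, had 93.5 and 114 RPKM in 0.1% glucose, against 10.7 and 12.4 RPKM in 2% glucose (8.96-fold, log2 fold change 3.05 ± 0.12, adjusted p = 1.7e-08). *fbp-1*, which encodes fructose-1,6-bisphosphatase, had 54.8 and 58.4 RPKM, against 18 and 18 RPKM in 2% glucose (log2 fold change 1.60, adjusted p = 1.8e-06). *acu-8*, the acetyl-CoA hydrolase gene, had 112 and 123 RPKM, against 47.9 and 48 RPKM in 2% glucose (log2 fold change 1.27), and *acu-5*, the acetyl-CoA synthetase gene, had 237 and 242 RPKM, against 141 and 139 RPKM in 2% glucose (log2 fold change 0.77). *acu-9*, the malate synthase gene of the glyoxylate cycle, was uneven, with 36.5 and 78.9 RPKM in the 2 libraries in 0.1% glucose, against 25.1 and 25.2 RPKM in 2% glucose (adjusted p = 0.0096, and 0.204 with these 4 libraries alone). *acu-3*, the isocitrate lyase gene, had 53.3 and 47.7 RPKM, against 15.7 and 15.5 RPKM in 2% glucose, and missed the threshold (adjusted p = 0.68). The WT libraries in 0.1% glucose, which enter the same estimate of spread, listed it at 1128 and 0 RPKM, and with the 4 *cpc-1Δ* libraries alone it passed (adjusted p = 0.0103).

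Calls in the citric acid cycle were upwards as well. Of 17 tested genes, those with a *tca* symbol and *cit-1*, 9 rose and none fell, with a median log2 fold change of 0.60. In a shorter list for the same cycle, 3 of 8 rose and none fell (median 0.57), and 6 rose with these 4 libraries alone. *tca-5* had 360 and 366 RPKM in 0.1% glucose, against 134 and 136 RPKM in 2% glucose (log2 fold change 1.42, adjusted p = 5.3e-08). *cit-1*, the citrate synthase gene, had 493 and 482 RPKM, against 322 and 332 RPKM in 2% glucose (log2 fold change 0.57), and *tca-15*, a malate dehydrogenase gene, had 520 and 539 RPKM, against 296 and 290 RPKM in 2% glucose (log2 fold change 0.85). *tca-14* had 310 and 319 RPKM, against 180 and 182 RPKM in 2% glucose, with no overlap, and its adjusted p was 0.37 in the fit of 15 libraries and 0.0163 with these 4 alone. In respiration, *aod-1*, the alternative oxidase that bypasses the cytochrome chain, had 26.3 and 21.1 RPKM in 0.1% glucose, against 8.06 and 7.62 RPKM in 2% glucose (log2 fold change 1.47, adjusted p = 1.5e-06), and *cyc-1*, the cytochrome c gene, had 557 and 555 RPKM, against 348 and 367 RPKM in 2% glucose (log2 fold change 0.64). Of 29 tested complex I (*nuo*) subunit genes, 4 rose and 1 fell, with a median of 0.08. That share of rises is near the 13.3% over all genes, and 2 rose without replicate 1 in 0.1% glucose or replicate 1 in 2% glucose.

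Genes of glycolysis and fermentation moved the other way. Of 10 tested members of that list, 5 fell and 1 rose, beside 14.9% of all genes tested that fell and 13.3% that rose. *ace-8*, the pyruvate kinase gene, had 978 and 962 RPKM in 0.1% glucose, against 2329 and 2364 RPKM in 2% glucose (log2 fold change -1.27 ± 0.05, adjusted p = 1.9e-08). *cfp*, the pyruvate decarboxylase gene, whose enzyme leads pyruvate into alcohol fermentation, had 1587 and 1639 RPKM, against 3287 and 3349 RPKM in 2% glucose (log2 fold change -1.04). *emp-3*, the phosphofructokinase gene, had 209 and 197 RPKM, against 337 and 342 RPKM in 2% glucose (log2 fold change -0.74). *emp-7* had 3917 and 3984 RPKM, against 5234 and 5456 RPKM in 2% glucose (log2 fold change -0.44), and the fifth that fell, the phosphoglycerate kinase gene *pgk* (log2 fold change -0.20, adjusted p = 0.023), missed the threshold when any of the 4 libraries was left out (adjusted p up to 0.0929). The member that rose was *emp-1*, with 348 and 340 RPKM in 0.1% glucose, against 280 and 276 RPKM in 2% glucose (log2 fold change 0.31, adjusted p = 0.0018, and 0.058 with these 4 libraries alone). *fba* (aldolase) and *adh-1* (alcohol dehydrogenase) did not pass the test (adjusted p = 0.93 and 1). *gpi-1* was listed at 0 and 620 RPKM in 0.1% glucose, against 546 and 557 RPKM in 2% glucose, so, as for *gpd-1*, 1 library decided its value: both missed the threshold, and both passed it when the 0.1% glucose library above 0 was left out (adjusted p = 3.2e-11 for *gpi-1* and 5.2e-11 for *gpd-1*).

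Genes for stores of carbohydrate also changed in mRNA level. The glycogen synthase gene *gsy-1* had 394 and 376 RPKM in 0.1% glucose, against 241 and 242 RPKM in 2% glucose (log2 fold change 0.67, adjusted p = 8.5e-06), and *gnn*, which encodes glycogenin, the primer of glycogen chains, had 342 and 322 RPKM, against 167 and 180 RPKM in 2% glucose (log2 fold change 0.93). The trehalase gene *tre-1* had 4.66 and 5.96 RPKM in 0.1% glucose and was listed at 0 and 0 in 2% glucose. *tre-2* fell, with 73.7 and 79.2 RPKM in 0.1% glucose, against 98.9 and 102 RPKM in 2% glucose (log2 fold change -0.39).

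**Figure D2:**
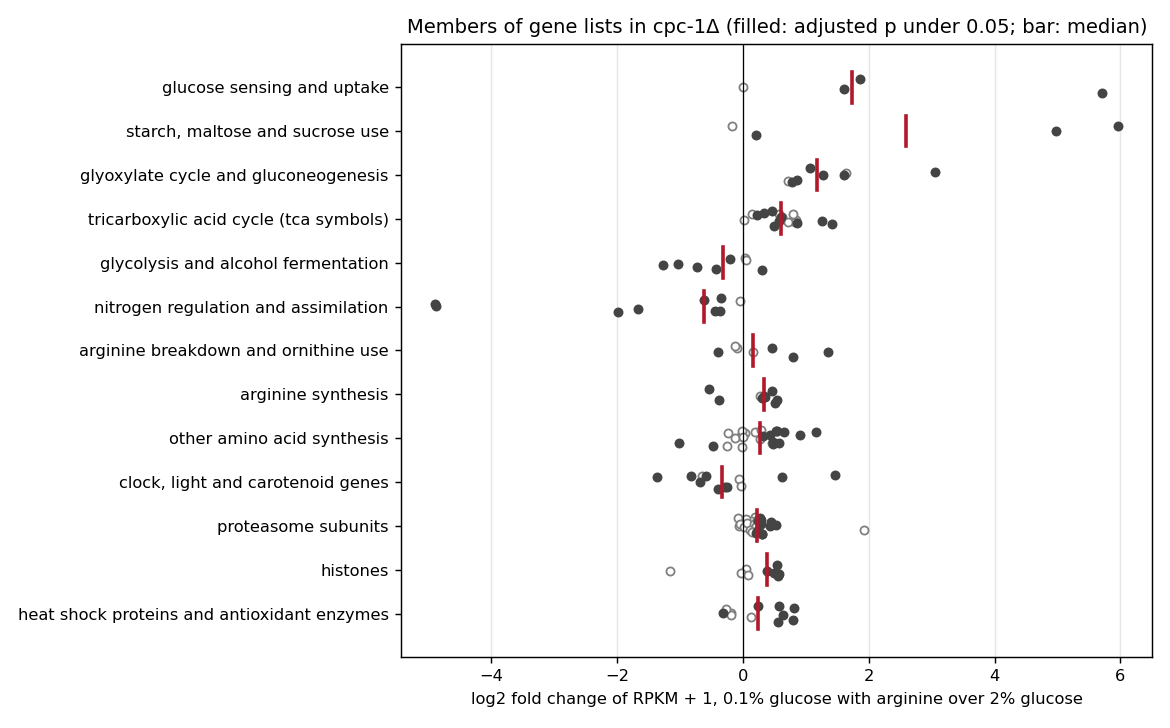
Log2 fold change of RPKM + 1 in *cpc-1Δ*, 0.1% glucose with arginine over 2% glucose, for the members of 13 gene lists that were above 0 in all 4 libraries. Each point is a gene, filled where the adjusted p was under 0.05, and bars are the medians of the points shown. Points for gluconeogenesis and the citric acid cycle lie mostly right of 0 and those for nitrogen assimilation left of it.

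Nitrate assimilation held the 2 largest falls among list members above 0 in all 4 libraries. *Neurospora* takes up nitrate through NIT-10 and reduces it to ammonium through the nitrate reductase NIT-3 and the nitrite reductase NIT-6. The first of these, *nit-10*, had 3.38 and 3.64 RPKM in 0.1% glucose, against 131 and 133 RPKM in 2% glucose (log2 fold change -4.88 ± 0.17, adjusted p = 6.6e-09). *nit-3* had 0.969 and 1.37 RPKM, against 62.8 and 63.3 RPKM in 2% glucose (log2 fold change -4.89 ± 0.14, adjusted p = 9.3e-10). *nit-6* had 116 and 116 RPKM, against 373 and 368 RPKM in 2% glucose (log2 fold change -1.67 ± 0.05, adjusted p = 1.4e-09). In 0.1% glucose with arginine *nit-3* and *nit-10* were thus left at a few RPKM or less, far below *nit-6*, with each medium's libraries close together.

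Genes that fix ammonium fell as well. *am*, the NADP-dependent glutamate dehydrogenase gene, had 210 and 211 RPKM in 0.1% glucose, against 844 and 838 RPKM in 2% glucose (log2 fold change -1.99 ± 0.12, adjusted p = 5.9e-07). The glutamine synthetase genes *gln-1* and *gln-2* had log2 fold changes of -0.36 and -0.45, and *en(am)-2*, the glutamate synthase gene, had -0.35 (not called with the highest transcript alone, adjusted p = 0.15). *nit-2*, the GATA factor that turns on nitrogen source genes, had 40.4 and 43.1 RPKM in 0.1% glucose, against 63.1 and 66.4 RPKM in 2% glucose (log2 fold change -0.62, adjusted p = 9.2e-05), while *nit-4*, the nitrate-specific activator gene, had 3.13 and 2.71 RPKM in 0.1% glucose, against 2.42 and 3.74 RPKM in 2% glucose, which overlapped. In total 8 of 10 tested members fell and none rose, beside 14.9% of all genes tested that fell. The other that did not pass, *gdh-1*, was listed at 0 in all 4 libraries. *nmr*, whose product restrains NIT-2 and which was counted with the regulators of carbon repression, had 2.74 and 4.73 RPKM in 0.1% glucose and was listed at 0 and 0 in 2% glucose (adjusted p = 4.7e-05).

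The first enzymes of arginine breakdown rose in the medium that held arginine. *aga-1*, the arginase gene, had 267 and 268 RPKM in 0.1% glucose with arginine, against 110 and 99.7 RPKM in 2% glucose (2.55-fold, log2 fold change 1.35 ± 0.08, adjusted p = 3.4e-07). *ota*, the ornithine transaminase gene, had 211 and 219 RPKM, against 125 and 122 RPKM in 2% glucose (log2 fold change 0.79, adjusted p = 7.7e-05). *pmb*, the basic amino acid permease gene, fell, with 71.7 and 65.1 RPKM, against 88.1 and 93.7 RPKM in 2% glucose (adjusted p = 0.0048, and 0.07 with these 4 libraries alone). *spe-1*, the ornithine decarboxylase gene that leads to polyamines, had 176 and 161 RPKM, against 175 and 184 RPKM in 2% glucose, and the libraries overlapped. Over the 8 tested members of this list, 3 rose and 1 fell, with a median of 0.04, beside 13.3% of all genes tested that rose and 14.9% that fell. The third to rise, *pro-4* (log2 fold change 0.45, adjusted p = 0.0079), missed the threshold without replicate 2 in 2% glucose (adjusted p = 0.05002).

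Arginine synthesis genes split, with counts to be read beside the 13.3% of all genes tested that rose and the 14.9% that fell. Carbamoyl phosphate synthetase for arginine has a small subunit encoded by *arg-2*, which fell, with 95.7 and 96.7 RPKM in 0.1% glucose with arginine, against 141 and 139 RPKM in 2% glucose (log2 fold change -0.54 ± 0.09, adjusted p = 0.0015). Its large subunit gene, *arg-3*, had 67 and 71.8 RPKM, against 47.1 and 48.1 RPKM in 2% glucose (log2 fold change 0.54, adjusted p = 0.019), so the 2 subunit genes changed in opposite directions. *arg-4* fell (log2 fold change -0.39, adjusted p = 0.00063). *arg-10*, the argininosuccinate lyase gene, had 62.2 and 62.1 RPKM, against 42.8 and 46.6 RPKM in 2% glucose (log2 fold change 0.47, adjusted p = 0.0012), and *arg-6*, which encodes acetylglutamate kinase and the next enzyme, had 91.5 and 83.1 RPKM, against 60 and 62.2 RPKM in 2% glucose (log2 fold change 0.51). *arg-6* and *arg-1* missed the threshold with the highest transcript alone (adjusted p = 0.514 and 0.212). Altogether 6 of 10 tested members rose and 2 fell, with a median log2 fold change of 0.35, but 2 rose without replicate 2 in 0.1% glucose, 3 without replicate 2 in 2% glucose and 3 with these 4 libraries alone. Of the 6, *arg-1*, *arg-3*, *arg-5* and *arg-14* each missed the threshold once at least 1 *cpc-1Δ* library was left out (adjusted p up to 0.107, for *arg-14* without the library of replicate 2 in 2% glucose). *arg-12*, the ornithine transcarbamylase gene, had 41.5 and 50.3 RPKM, against 39.7 and 35.9 RPKM in 2% glucose (adjusted p = 0.14). *arg-13*, the mitochondrial ornithine carrier gene, had 7.99 and 7.18 RPKM, against 10.8 and 0 RPKM in 2% glucose, so its direction depended on the library (log2 fold change -0.46 without replicate 2 in 2% glucose, and higher in 0.1% glucose without replicate 1).

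Genes of other amino acid pathways, many of them targets of cross-pathway control in WT, changed by small amounts. Over all genes tested 13.3% rose and 14.9% fell, and the share of this list that fell was below that. Of 25 tested genes, 10 rose, 2 fell (4 without replicate 1 in 0.1% glucose) and 13 did not pass the test, with a median log2 fold change of 0.27. *met-8*, the methionine synthase gene, rose most, with 3616 and 3553 RPKM in 0.1% glucose, against 1572 and 1622 RPKM in 2% glucose (log2 fold change 1.17 ± 0.06, adjusted p = 1.3e-07). Of the branched-chain pathway, *ilv-2* (ketol-acid reductoisomerase) had 591 and 578 RPKM, against 309 and 312 RPKM in 2% glucose (log2 fold change 0.91), *leu-2* (isopropylmalate isomerase) had a log2 fold change of 0.65, and *leu-1* (isopropylmalate dehydrogenase) of 0.53. *lys-5*, the homocitrate synthase gene of lysine synthesis, had 371 and 356 RPKM, against 245 and 243 RPKM in 2% glucose (log2 fold change 0.57). The histidine gene *his-3*, a classic cross-pathway control target, had 86.1 and 78.2 RPKM in 0.1% glucose, against 83.1 and 84.5 RPKM in 2% glucose, and did not pass the test (adjusted p = 0.84). *aro-1*, the pentafunctional arom gene (0.47), and *aro-7* (0.31) rose but missed the threshold without at least 1 of the libraries in 0.1% or 2% glucose (adjusted p up to 0.0543). The 2 that fell were *thr-5*, with 30.8 and 23.1 RPKM, against 54.5 and 55.9 RPKM in 2% glucose (log2 fold change -1.02), and *cys-3*, the bZIP activator of sulfur genes, with 122 and 133 RPKM, against 179 and 176 RPKM in 2% glucose (log2 fold change -0.47).

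Conidiation and clock-controlled genes went in both directions, with 4 of 18 tested higher and 5 lower, and 3 lower without replicate 2 in 0.1% glucose and 2 without replicate 2 in 2% glucose. Over all genes tested, 13.3% were higher and 14.9% lower. *ccg-1*, a glucose-repressible clock-controlled gene, had 5306 and 5554 RPKM in 0.1% glucose, against 2688 and 2712 RPKM in 2% glucose (log2 fold change 1.01, adjusted p = 1.7e-06). *con-8* had 52.2 and 54.8 RPKM, against 104 and 111 RPKM in 2% glucose (log2 fold change -0.99, adjusted p = 4.4e-07), and *csp-1*, a light-induced repressor gene, had 53.6 and 49.1 RPKM, against 112 and 114 RPKM in 2% glucose (log2 fold change -1.13). *con-6* had 5.7 and 7 RPKM in 0.1% glucose and was listed at 0 in 2% glucose. The 6 conidial markers summed to 102 and 98.1 RPKM in 0.1% glucose, against 160 and 181 RPKM in 2% glucose, and of these markers 1 rose (*con-6*) and 3 fell (*con-8*, *con-10* and *fl*). *con-10* (9.37 and 6.73 RPKM in 0.1% glucose, against 16.9 and 32.2 RPKM in 2% glucose) and *fl* lost the call without at least 1 of the libraries (adjusted p up to 0.176, for *fl* without replicate 2 in 0.1% glucose). In these bulk samples of mycelia, fewer conidia and lower levels of these RNAs within conidia or mycelium cannot be told apart. The part of conidia in any other difference was not tested.

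Of 15 tested clock, light and carotenoid genes, 2 rose and 7 fell, beside 14.9% of all genes that fell, but 4 fell without replicate 2 in 0.1% glucose and 1 with these 4 libraries alone. *frq*, the clock gene, had 32.8 and 32.7 RPKM in 0.1% glucose, against 69 and 50.4 RPKM in 2% glucose (adjusted p = 0.00048, and 0.077 with these 4 libraries alone). *wc-2*, a subunit of the blue-light photoreceptor complex, had 10.3 and 21.8 RPKM, against 40.6 and 40.9 RPKM in 2% glucose (adjusted p = 0.0034, and 0.12 with these 4 alone). Neither gene overlapped between the media, but the 2% glucose libraries of *frq* and the 0.1% glucose libraries of *wc-2* lay apart. *vvd*, a small photoreceptor gene, had 184 and 177 RPKM in 0.1% glucose, against 0 and 433 RPKM in 2% glucose, so its direction depended on the library (log2 fold change -1.26 without replicate 1 in 2% glucose, and higher in 0.1% glucose without replicate 2).

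Of the markers of sexual tissue, *mfa-1*, a pheromone precursor gene, stood out, with 130 and 137 RPKM in 0.1% glucose, against 5.65 and 5.63 RPKM in 2% glucose (23.6-fold, log2 fold change 4.34 ± 0.07, adjusted p = 7.7e-12). *asd-1*, a gene needed for ascus development, went the other way, with 40.4 and 42.2 RPKM in 0.1% glucose, against 185 and 188 RPKM in 2% glucose (log2 fold change -2.15 ± 0.13, adjusted p = 7.4e-07). None of the other 4 of the 6 markers passed the test, *poi-2* was listed at 0 in all 4 libraries, and the marker sum was 186 and 201 RPKM in 0.1% glucose, against 214 and 213 RPKM in 2% glucose.

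Lists of cell machinery, read beside the 13.3% of all genes tested that rose, had small changes and counts that depended on single libraries. Of 30 tested proteasome subunit genes, 12 rose and none fell, with a median log2 fold change of 0.22, but 4 to 7 rose when a *cpc-1Δ* library was left out (4 without replicate 2 and 7 without replicate 1 in 0.1% glucose, 5 without replicate 1 and 6 without replicate 2 in 2% glucose) and 2 with these 4 libraries alone. Of 20 peroxins, the proteins that build peroxisomes, 6 rose and 1 fell, with a median of 0.20, and 2 rose without replicate 2 in 0.1% glucose and 3 without replicate 2 in 2% glucose. Of 9 histone genes, 5 rose and none fell, with a median of 0.39, and 1 fell without replicate 2 in 0.1% glucose. Of 14 vacuolar ATPase subunit genes 4 rose and 1 fell, and 2 rose without replicate 1 in 0.1% glucose or replicate 2 in 2% glucose. Of 21 mitochondrial import genes 3 rose, a share near that of all genes, with 5 after median-ratio scaling and 0 with these 4 libraries alone. Of 9 cytosolic ribosomal protein genes 1 rose, also near that share, with 3 after median-ratio scaling and 0 with these 4 libraries alone. After that scaling 1314 of all 9013 genes tested rose. The 5 genes kept as references all rose (2 with these 4 libraries alone), by 0.31 at the median, among them *Bml* (0.26) and *act* (0.31), so changes of this size were shared by genes that are commonly used as standards. Chaperone genes varied. The 2 that rose most were *grp78*, the main chaperone of the endoplasmic reticulum, at 447 and 460 RPKM in 0.1% glucose, against 257 and 260 RPKM in 2% glucose (log2 fold change 0.81), and *hsp70-5* at 274 and 270 RPKM, against 154 and 157 RPKM in 2% glucose (log2 fold change 0.80). *hsp80* rose by less (0.23), and *hsp98* (0.13, adjusted p = 0.65) and *hsp30* (-0.19, adjusted p = 0.17) did not pass the test. Of 12 tested heat shock and antioxidant genes 6 rose and 1, the catalase gene *cat-3*, fell (-0.31), and 2 fell without replicate 1 in 0.1% glucose.

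Cell wall protein genes with an *acw* or *ncw* symbol changed in both directions, 5 of 17 up and 3 down, beside 13.3% of all genes tested that rose and 14.9% that fell. *acw-6* had 657 and 661 RPKM in 0.1% glucose, against 301 and 310 RPKM in 2% glucose (log2 fold change 1.11, adjusted p = 3.6e-07). *ncw-3* had 345 and 344 RPKM, against 1024 and 997 RPKM in 2% glucose (log2 fold change -1.55, adjusted p = 1.7e-09), and *ncw-5* had 6.4 and 5.3 RPKM, against 26.6 and 27.9 RPKM in 2% glucose (log2 fold change -2.05). The chitinase gene *chit-1* had 46.3 and 31.6 RPKM in 0.1% glucose, against 6.84 and 6.42 RPKM in 2% glucose (log2 fold change 2.36, adjusted p = 3.5e-07).

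Ranking the genes by fold change, among 1773 that averaged 10 RPKM or more, did not overlap and were called with and without scaling, gave 12 genes at each end. Besides *inv* and *hgt-1*, the upper 12 held 2 genes without a symbol that were above 0 in every library. NCU05897 had 193 and 208 RPKM in 0.1% glucose, against 1.98 and 2.83 RPKM in 2% glucose (83.4-fold), and NCU04963 had 408 and 397 RPKM, against 8.7 and 9.34 RPKM in 2% glucose (44.6-fold). The other 8 were listed at 0 in both 2% glucose libraries. Of these, *ccg-13* had 242 and 243 RPKM, NCU06660 had 120 and 469 RPKM and NCU01064 had 77.3 and 69.9 RPKM in 0.1% glucose, and the rest were *gh18-5*, NCU02936, NCU00641, NCU05276 and NCU06209. At the lower end, *nit-3*, *nit-10* and NCU10865 (2.48 and 2.95 RPKM in 0.1% glucose, against 107 and 110 RPKM in 2% glucose) were above 0 in every library, and 9 were listed at 0 in both 0.1% glucose libraries. Of these 9, *ccg-14* had 935 and 932 RPKM in 2% glucose (adjusted p = 0.011, and 0.0515 without replicate 2 in 2% glucose), NCU03634 had 235 and 225 RPKM and NCU05138 had 155 and 162 RPKM.

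Genes listed at 0 throughout 1 medium often shared their place in the genome with a neighbour. In all, 19 genes were at 0 in both 2% glucose libraries and at 10 RPKM or more in both 0.1% glucose libraries, and 23 showed the reverse. In the RefSeq annotation of the NC12 assembly, the annotated span overlapped that of another gene for 11 of these 19 (57.9%) and 18 of these 23 (78.3%), against 2042 of 9013 genes tested (22.7%). Whether the library kit and the quantification kept the strand is not given in the sources used here, and how reads of overlapping genes were assigned was not tested. *inv*, *gh31-3*, *cdt-1*, *ilv-2*, *leu-2*, *arg-1*, *arg-3*, *emp-3*, *ace-8*, *tca-5*, *arg-12*, *arg-13*, *gnn*, *ncw-5*, *chit-1*, *xr*, *gh10-2*, *gh18-5*, *pmb*, *pro-4*, *cys-3*, *pgk*, *adh-1*, *cpc-2*, *con-6* and *tre-1*, the last pair listed at 0 in 2% glucose, overlap a neighbour in that annotation too. Among the 7023 genes above 0 in all 4 libraries, 2301 were called, 1101 up and 1200 down.

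The 5 genes of highest mean in each medium made up 6 genes, *gpd-1* among them. NCU06110 had 13809 and 13300 RPKM in 0.1% glucose, against 14052 and 14100 RPKM in 2% glucose, and *tef-1*, the translation elongation factor 1α gene, had 8628 and 8753 RPKM, against 8342 and 8396 RPKM in 2% glucose, and neither passed the test (adjusted p = 0.65 and 0.53). *nmt-1* had 13782 and 13640 RPKM, against 11331 and 11216 RPKM in 2% glucose (log2 fold change 0.28), and NCU16635 had 6279 and 6374 RPKM, against 6478 and 6403 RPKM in 2% glucose (adjusted p = 0.89). The gene that moved most was *ccg-16*, at 6583 and 6773 RPKM in 0.1% glucose, against 2981 and 3108 RPKM in 2% glucose (log2 fold change 1.13, adjusted p = 1.3e-07).

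WT was grown in the same media, which allows the change in *cpc-1Δ* to be set beside that in WT. The 3 WT libraries in 2% glucose stood apart in scale, with RPKM sums of 363953, 364016 and 370927 and median-ratio factors of 0.81 to 0.83, against 1.21 to 1.24 for the other 6 libraries. As deposited, the WT log2 fold changes had a median of 0.49 over the genes averaging 10 RPKM or more, and -0.06 after scaling, so values scaled by median ratio are used here for WT. In WT this difference in scale followed the medium, and in *cpc-1Δ* the media did not differ so. An effect of medium in WT, and of strain in the interaction, thus cannot be told apart from that of the set of libraries. With scaling, 2524 genes differed between the media in *cpc-1Δ*, against 4774 (53.0%) in WT. The difference of the 2 changes, tested as an interaction, passed for 3780 genes (41.9%), 1877 higher and 1903 lower in *cpc-1Δ*. As deposited it passed for 4574 (50.7%), 898 higher and 3676 lower.

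The changes were less widely spread in *cpc-1Δ* than in WT. Over the 4549 genes averaging 10 RPKM or more and above 0 in all 9 libraries, the scaled log2 fold changes had an SD of 0.63 in *cpc-1Δ* and 1.11 in WT, and 7.45% of these genes changed by 1 or more on the log2 scale in *cpc-1Δ*, against 26.5% in WT. Across these genes Pearson's r between the 2 strains was 0.43 and Spearman's rho was 0.31, as a description over genes, which are not independent, between strains that share no library. Of 1507 genes called in both strains, 1032 changed in the same direction and 475 in opposite directions.

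**Figure D3:**
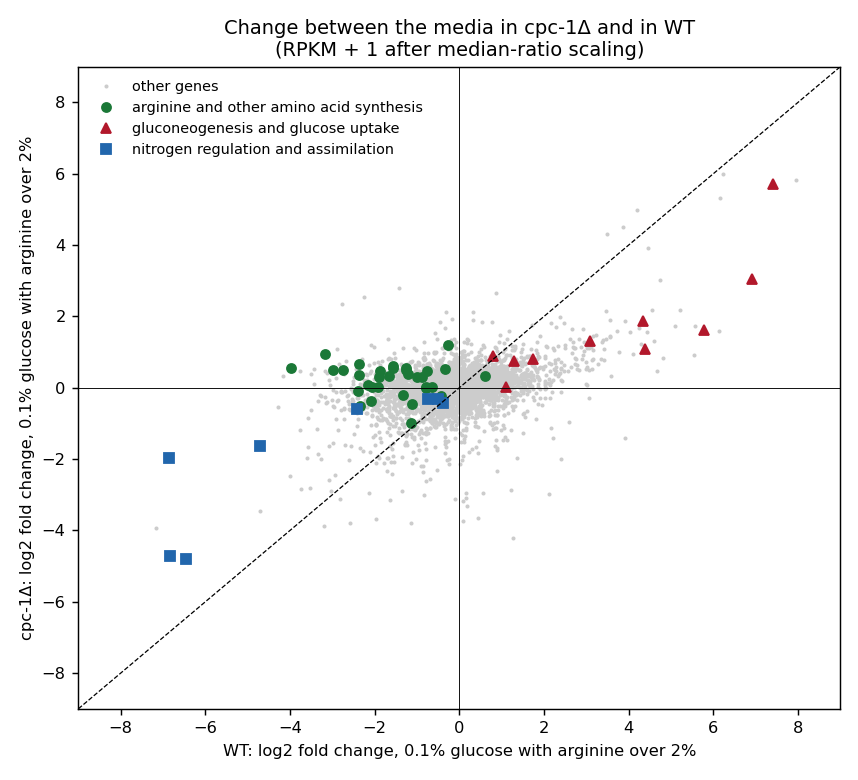
Log2 fold change between the media after median-ratio scaling in *cpc-1Δ* (y axis) and in WT (x axis) for 4549 genes, with the members of 3 groups of lists marked. The dashed line marks equal change. Amino acid synthesis genes lie left of 0 for WT with few exceptions and near or just above 0 for *cpc-1Δ*, and gluconeogenesis and uptake genes lie mostly below the line.

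Gluconeogenesis genes rose by less in *cpc-1Δ* than in WT at the median (scaled log2 fold change 1.19 in *cpc-1Δ* and 2.41 in WT). The interaction was lower in *cpc-1Δ* for 5 of 8 and higher for none (7 and 0 as deposited). Of all 9013 genes tested, it was lower for 1903 and higher for 1877 (3676 and 898 as deposited). Not every member rose by less, as *tca-15* had 0.88 in *cpc-1Δ* and 0.80 in WT. *acu-6* had a scaled log2 fold change of 3.06 in *cpc-1Δ* and 6.91 in WT, where it had 4254 and 4141 RPKM in 0.1% glucose, against 21.1, 23.7 and 22.5 RPKM in 2% glucose (interaction adjusted p = 2e-08). *fbp-1* had 1.62 in *cpc-1Δ* and 5.77 in WT (interaction adjusted p = 2.3e-09), and *hgt-1* had 5.72 in *cpc-1Δ* and 7.40 in WT (interaction adjusted p = 2.6e-05). For *inv* the changes were 5.98 in *cpc-1Δ* and 6.22 in WT, and their difference did not pass the test (interaction adjusted p = 0.94). Its SE was 1.74, against 0.18 for *hgt-1*, so only a large difference could have passed. *gla-1* had 4.97 in *cpc-1Δ* and 4.19 in WT, a difference that passed after scaling (adjusted p = 6.3e-05) but not as deposited (adjusted p = 0.14). *cre-1* did not pass the test in *cpc-1Δ*, and in WT it fell, with 43.3 and 36 RPKM in 0.1% glucose, against 75.2, 70.9 and 75.2 RPKM in 2% glucose (interaction adjusted p = 3e-07).

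For amino acid synthesis the 2 strains changed in opposite directions at the median. After scaling, the median log2 fold change over the 10 arginine synthesis genes was 0.37 in *cpc-1Δ* and -2.22 in WT, and over the 25 other amino acid synthesis genes it was 0.29 in *cpc-1Δ* and -1.33 in WT. The *cpc-1Δ* medians were of the size of that of the 5 reference genes (0.34 in *cpc-1Δ*, -0.004 in WT), and of the 25 genes 10 rose and 2 fell in *cpc-1Δ*. The contrast thus lay mainly in the fall in WT. The interaction passed in the direction of *cpc-1Δ* for 9 of the 10 and 20 of the 25 and in the other direction for none, beside 41.9% of all genes in either direction. As deposited, it passed for 8 and 14 in that direction and for 1 and 2 in the other. *arg-10*, higher in 0.1% glucose in *cpc-1Δ*, had 36.7 and 36.9 RPKM in WT in 0.1% glucose, against 198, 195 and 207 RPKM in WT in 2% glucose (interaction adjusted p = 3.2e-10). *ilv-2* had 46.5 and 49.5 RPKM in WT in 0.1% glucose, against 316, 328 and 248 RPKM in WT in 2% glucose (interaction adjusted p = 9.4e-09). In WT, *cpc-1* itself was lower in 0.1% glucose with arginine (scaled log2 fold change -2.01).

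**Figure D4:**
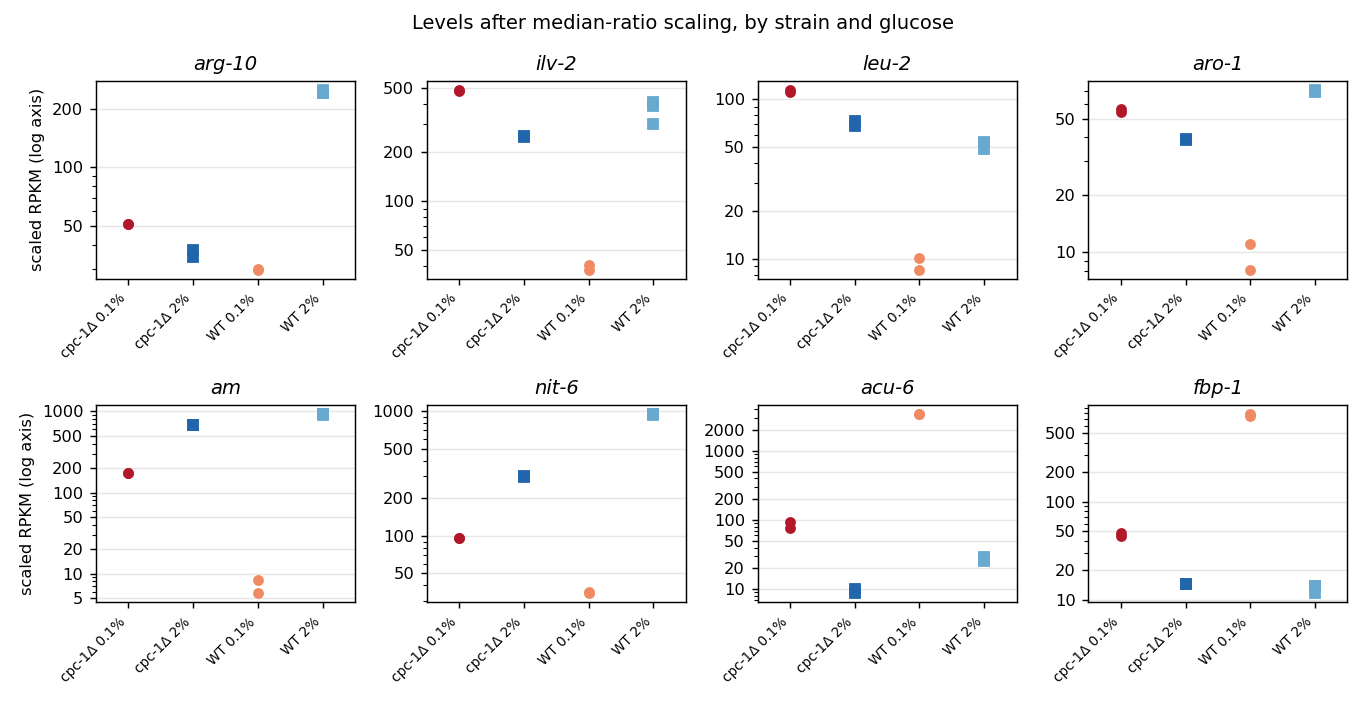
RPKM after median-ratio scaling (log axes that differ between panels) of 8 genes in *cpc-1Δ* and WT, with 0.1% glucose with arginine (circles) left of 2% glucose (squares) for each strain. Each symbol is 1 library. The amino acid genes *arg-10*, *ilv-2*, *leu-2* and *aro-1* are lower in 0.1% than in 2% glucose in WT and higher in *cpc-1Δ*, and *acu-6* and *fbp-1* reach higher levels in WT than in *cpc-1Δ* in 0.1% glucose.

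The nitrogen genes *am*, *nit-6* and *nit-3* fell in both strains, by less in *cpc-1Δ*, and over the 10 members the interaction was higher in *cpc-1Δ* for 7 and lower for none (6 and 2 as deposited). Of all 9013 genes tested, it was higher for 1877 and lower for 1903 (898 and 3676 as deposited). *am* had a scaled log2 fold change of -1.96 in *cpc-1Δ* and -6.86 in WT, where it had 7.03 and 10.3 RPKM in 0.1% glucose, against 747, 756 and 768 RPKM in 2% glucose (interaction adjusted p = 1.9e-09). *nit-6* had -1.64 in *cpc-1Δ* and -4.72 in WT (interaction adjusted p = 2.9e-11), and *nit-3* had -4.73 in *cpc-1Δ* and -6.82 in WT (interaction adjusted p = 1.2e-05). In 2% glucose their scaled levels were already lower in *cpc-1Δ*, at 301 and 297 for *nit-6* (952, 948 and 932 in WT) and 50.7 and 51.2 for *nit-3* (164, 158 and 160 in WT). In 0.1% glucose scaled *nit-3* was close to 0 in both strains (0.795 and 1.13 in *cpc-1Δ*, 0.411 and 0.443 in WT), which limits the fall that could be seen. Of the 30 proteasome genes, 14 rose in *cpc-1Δ* and 28 in WT after scaling, with medians of 0.25 in *cpc-1Δ* and 0.93 in WT, and the interaction was lower in *cpc-1Δ* for 25. Among all 9013 genes tested, 1314 rose in *cpc-1Δ* and 2348 in WT after scaling. Some genes changed in opposite directions. *con-8* had -0.96 in *cpc-1Δ* and 2.60 in WT (interaction adjusted p = 3.9e-10), *acw-6* had 1.13 in *cpc-1Δ* and -2.02 in WT (interaction adjusted p = 5.9e-11), and *chit-1* had 2.36 in *cpc-1Δ* and -2.78 in WT (interaction adjusted p = 2.8e-09), and each strain's own change passed the test.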

How the data were processed

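mRNA was sequenced in 18 libraries, and 4 *cpc-1Δ* libraries were compared here with WT beside them. The RPKM values deposited by the authors were given per transcript, in files of 10792 entries. The processing notes name TopHat2 and Cufflinks, and the genome build is not given in the sources used here. After removal of 7 entries whose identifier carried a remark, the 10785 transcripts were summed to 9730 genes. Groups followed the labels. Genes above 0 in any of the 15 WT and *cpc-1Δ* libraries (9013) were tested with limma 3.58.1 (R 4.3.3) on log2(RPKM + 1), with 1 coefficient for each of 6 groups, two-sided, with Benjamini-Hochberg adjustment. Fold changes on this scale understate the change of low genes. Fits were repeated after median-ratio scaling. The 3-AT libraries of WT and *cpc-1Δ* entered the estimate of spread, and the complemented strain was left out, except in 1 alternative. The fit was tested on simulated data. Python 3.11.15, pandas 2.3.3, NumPy 2.4.6, SciPy 1.17.1 and matplotlib 3.10.9 were used.

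Named genes were *cpc-1* to *cpc-3* and list members, the 12 largest and 12 smallest fold changes called with and without scaling among genes averaging 10 RPKM or more without overlap, the 6 interactions at each end called with and without scaling, and the 5 highest genes per medium. Symbols and overlaps came from a RefSeq table of the NC12 assembly, which matched 9729 genes. Lists that needed product names could not be applied, and lists by symbol were added after the files were seen. The members and lists were chosen with earlier results of these data known. Alternatives covered scaling, pseudocount, filters, transcript summing, the libraries fitted, a replicate block and leaving out each library.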

Additional observations from a re-analysis of the deposited data

Results flagged for a closer look

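The change between 0.1% glucose with arginine and 2% glucose differed between *cpc-1Δ* and WT, by the interaction test, for 4574 genes as deposited and 3780 after median-ratio scaling. For the named genes below, the values are the change in *cpc-1Δ* minus the change in WT on the log2 scale after scaling.

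In carbon genes, the difference was -1.68 for *hgt-1*, -2.48 for *cdt-1*, -4.90 for *cdt-2*, -3.85 for *acu-6*, -4.16 for *fbp-1*, -3.30 for *acu-9*, -1.78 for *acu-8*, -1.92 for *ccg-1* and 1.68 for *cre-1*. In amino acid genes it was 4.11 for *ilv-2*, 3.04 for *leu-2*, 2.17 for *lys-5*, 1.46 for *met-8*, 3.25 for *aro-1*, 4.53 for *arg-3*, 3.48 for *arg-10* and 2.00 for *spe-1*. In nitrogen genes it was 4.90 for *am*, 3.08 for *nit-6* and 1.82 for *nit-2*.

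Among conidial and wall genes the difference was -3.56 for *con-8*, -5.30 for *con-10*, -4.39 for *ncw-5*, 3.15 for *acw-6* and 5.14 for *chit-1*, and it was -7.44 for NCU08351, which WT in 2% glucose listed at 2.71, 0 and 0 RPKM. Of these genes, *arg-3*, *aro-1*, *con-10* and NCU08351 lost the call within *cpc-1Δ* when a library was left out.

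For 9 genes listed at 0 in every library of at least 1 group, the interaction is given by its adjusted p alone: 0.0237 for NCU05276, 2.1e-10 for NCU06943, 0.0428 for NCU06209, 7.53e-10 for *ccg-13*, 2.24e-16 for NCU05138, 0.000573 for *pp2A*, 3.31e-13 for NCU03634, 2.2e-12 for NCU04494 and 0.000345 for NCU01081.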

How the results depend on the processing

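The count of 2538 genes that differed within *cpc-1Δ* was 1543 in a fit of the 4 libraries alone, which leaves 2 residual degrees of freedom, and lay between 2036 and 2216 with a library left out. Under the other settings it was within 1.5 times, including 2334 with a pseudocount of 0.1 and, in alternatives chosen after seeing the data, 2301 for genes above 0 in all 4 libraries. The count of 4574 interactions stayed within 1.5 times under every setting run, at 4281 to 4663 with a library left out. The median log2 fold change of 0.021 was 0.048 after median-ratio scaling and 0.0010 after upper-quartile scaling, and 0.019 to 0.035 with a library left out. The direction turned for *arg-13* and *vvd*, neither of which was called with all libraries. *arg-13* had -0.46 without replicate 2 in 2% glucose, and 3.1 without replicate 1, which left only a listed 0 in 2% glucose. *vvd* had -1.26 without replicate 1 in 2% glucose, and 7.505 without replicate 2, which again left only a listed 0. The alternatives were followed gene by gene for 150 genes, which did not include every list member. Of the 118 of these that were called, 35 lost the call under at least 1 alternative, 26 of them in the fit of 4 libraries. Proteasome genes that lost the call were not among them: 12 of 30 rose in the main fit and 2 in the fit of 4 libraries. With the replicate block, 6 of 30 proteasome genes rose. The cause was not tested. Whether same-numbered libraries shared more than a number is not given in the sources used here. Between the *cpc-1Δ* libraries of replicate 1 in the 2 media, deviations from the group means correlated at 0.022 over 4378 genes. With 2 libraries in a group the other pairing only reverses the sign, so this cannot settle the question. A fit with the replicate block gave 2349 genes and 4399 interactions (2361 and 3606 together with median-ratio scaling, added after seeing the data). Read depth is unknown, so no limit of detection can be given.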
